A study of Mus musculus with 16 samples.

Results

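Epidermal keratinocytes of newborn control mice and of mice lacking *Sas-4* in the epidermis were compared through the levels of 13033 genes. The levels come from 8 of the 16 libraries of the study, 4 from controls and 4 from *Sas-4* mutants at P0, the day of birth. The genes are those of the 49452 listed that reached 1 FPKM in at least 4 of the 8 libraries. FPKM are fragments per kilobase of transcript, scaled to library size. Genes are described here by function. The keratins, the *Sprr* and *S100a* genes and the targets of p53 were left out only when genes were picked for naming. Counts, medians and sums over lists and over all genes were not filtered for these families. Controls 1 and 4 were *K14-Cre* wt/wt and *Sas-4* fl/wt, controls 2 and 3 were *K14-Cre* tg/wt and *Sas-4* fl/wt, and mutants 1 to 4 were *K14-Cre* tg/wt and *Sas-4* fl/fl. Every mouse therefore carried a floxed *Sas-4* allele, and the Cre recombinase was present in all 4 mutants but in 2 of the 4 controls. The keratin 14 promoter switches Cre on in stratified epithelia such as the epidermis and its hair follicles, so pigment cells, immune cells and fibroblasts of these mice keep *Sas-4*. The labels give the strain as FVB/C57BL6. The epidermis was freed with dispase II and taken apart with TrypLE (per the labels) or floated on trypsin (per the study's methods), and the cells were frozen without culture. The labels number the libraries of a group without saying that each came from a separate pup, so the p-values measure the spread between libraries.

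The epidermis renews itself from a basal layer whose cells move upward, harden and are shed as the cornified layer that seals the skin. Hair follicles grow down from the same epithelium under Wnt, Eda, hedgehog and BMP signals exchanged with the dermis, and melanocytes, Langerhans cells and T cells live among the keratinocytes. The protein encoded by *Sas-4* is needed to build centrioles, the cylinders at the core of the centrosome that also seed cilia, and cells that divide without centrioles are known to activate p53 through the mitotic surveillance pathway.

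The targeted gene, listed as *Cenpj* on the minus strand of chr14:56526761-56571846 (mm10), was at 4.35, 3.35, 3.22 and 4.29 FPKM in controls and 1.52, 1.41, 1.35 and 1.09 FPKM in mutants (log2 change -1.03, SE 0.12, adjusted p 0.000141). Values of libraries are given in the order 1 to 4 here and below, and log2 changes, their standard errors (SE) and adjusted p come from limma. Its mean was 2.84-fold lower in mutants, with no overlap between the groups, but whole-gene FPKM does not show which exons were read. FPKM summed to 605744 to 645991 in controls and 637984 to 740238 in mutants, and read numbers are not part of the values. Depth was estimated from the most common ratio between control 1 and a library among genes below 0.2 FPKM, each read by a few fragments. By this estimate every library lay at 0.928 to 1.113 times the depth of control 1. Ratios far from equality were dropped beforehand, so a large difference in depth could not have been found. At least 1 FPKM was reached by 12952 to 13189 genes in controls and by 12407 to 12536 in mutants (two-sided p = 0.0286 by an exact permutation test, which cannot go lower with this design). Mutant 4 stood apart from the other mutants. It held the lowest of the 4 mutant values for 39.9% of the tested genes and the highest for 33.7%, while the other libraries held the lowest value of their group for 11.2 to 28.9% and the highest for 16.5 to 29.3%. By their Y-linked genes, control 4 and mutants 1, 2 and 3 were male. A value of 0 in 1 or more libraries stood beside more than 20 FPKM in another for 42 tested genes, so a 0 can be a failed estimate and is not read as absence.

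Markers of the cells that share the epidermis with keratinocytes differed between the groups in different directions. All 12 keratinocyte markers were tested, and 5 were higher and 0 lower. Their summed FPKM was 29400 to 34900 in controls and 40100 to 51400 in mutants. Melanocyte markers were higher for 9 and lower for 0 of 13 tested, with a summed FPKM of 242 to 316 in controls and 344 to 722 in mutants. Markers of Langerhans cells and other myeloid cells were lower for 20 of 22 tested and higher for 0, with a sum of 361 to 563 in controls and 119 to 151 in mutants. All 7 tested T cell markers were lower (of 16 listed), with a sum of 24.4 to 36.7 against 7.47 to 11.3. Of 15 fibroblast markers, 8 were tested, 5 were lower and 0 higher, and the sum was 667 to 769 in controls and 312 to 418 in mutants. The 2 tested Merkel cell markers were both lower, with a sum over 11 markers of 8.97 to 10.9 against 1.43 to 2.04. A marker of low level can pass the filter through the 4 controls alone and is then almost bound to be lower in mutants. Counts of tested T cell and Merkel cell markers that were lower are therefore no support for a fall. The sums are taken over all listed markers, tested or not. Of 11 endothelial markers 1 was tested, of 11 neutrophil markers 0, and the sums of neutrophil markers stayed between 1.09 and 2.67 FPKM in all 8 libraries. Erythroid markers ranged from 24.5 to 823 FPKM over the libraries. In such bulk samples, fewer cells of a type and less RNA per cell cannot be told apart.

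**Figure D1:**
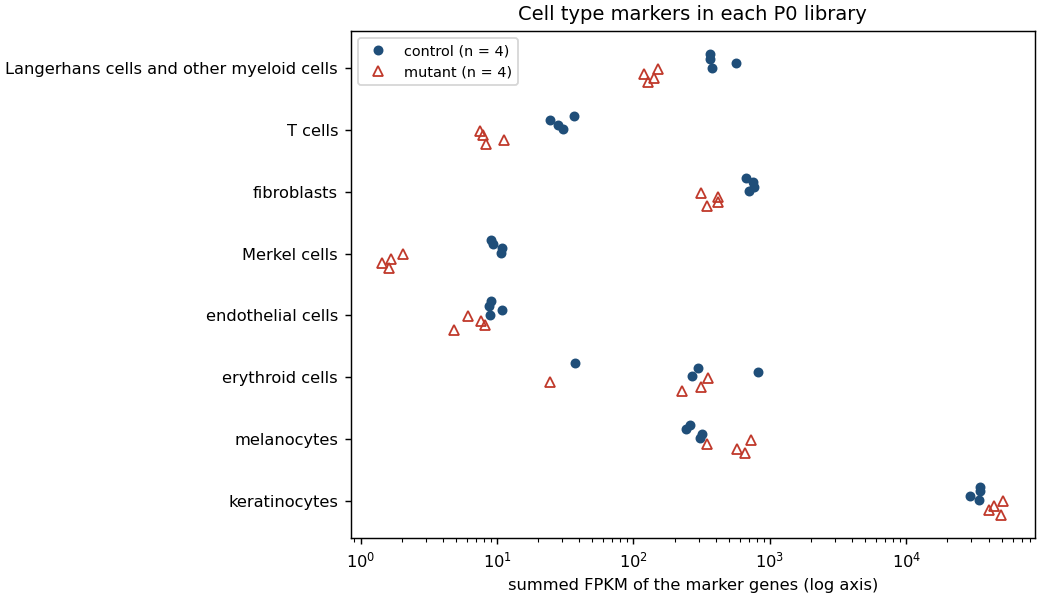
Summed FPKM of the marker genes of 8 cell types in each library (log axis), with filled circles for the 4 controls and open triangles for the 4 mutants. The groups overlap for erythroid markers and are separate for the other types. Keratinocyte and melanocyte sums are higher in mutants, and those of myeloid cells, T cells, fibroblasts, Merkel cells and endothelial cells are lower.

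Across all 13033 genes, 5515 passed an adjusted p of 0.05 (42.3%), of which 1520 were higher (11.7%) and 3995 lower (30.7%) in mutants. The test was limma on log2(FPKM + 1), two-sided and adjusted over all tested genes by Benjamini-Hochberg, and fold changes on this scale understate those of genes with low FPKM. The split of the calls depended on the overall shift, a median log2 fold change of -0.15. After median-of-ratios scaling, which brings that median to 0, 2459 genes were higher (18.9%) and 2520 lower (19.3%), and 2320 and 2480 after quantile normalization. A list is therefore read against 11.7% higher and 30.7% lower as deposited, and its counts after median-of-ratios scaling, written as "after scaling", against 18.9% and 19.3%. Among called genes, 339 were at least 2-fold higher (2.6%) and 686 at least 2-fold lower (5.26%), and after scaling 433 and 523. The groups did not overlap for 5674 of all tested genes (43.5%), 1524 higher (11.7%) and 4150 lower (31.8%). Most genes named below were picked by small adjusted p or large change, so absence of overlap among them adds little. Without mutant 4, 6451 genes were called, 1906 higher and 4545 lower. Against controls 2 and 3 alone, which carry Cre like the mutants, 3002 were called, 829 higher and 2173 lower.

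**Figure D2:**
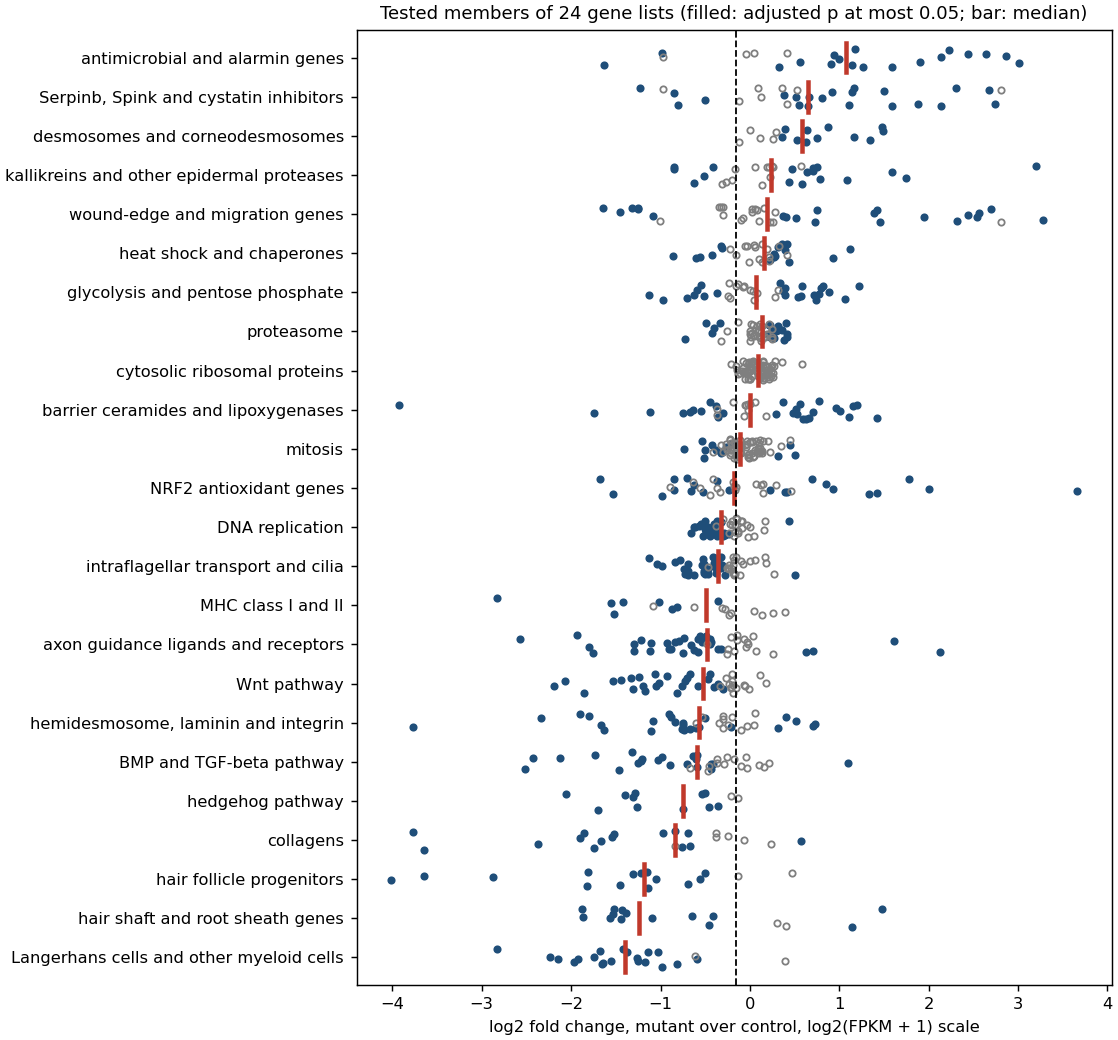
Log2 fold change (mutant over control, log2(FPKM + 1) scale) of every tested member of 24 gene lists, 1 point per gene, filled where the adjusted p was at most 0.05, with a bar at the list median and a dashed line at the median of all tested genes, -0.15. Antimicrobial genes, protease inhibitors and desmosomes lie to the right with medians of 1.07, 0.65 and 0.58, and hair follicle progenitor, myeloid and hair shaft genes to the left with medians of -1.18, -1.40 and -1.24.

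The largest changes were ranked among genes outside the families left out whose groups did not overlap, and *2310046K23Rik* had the largest rise. This gene of the epidermal differentiation cluster on chromosome 3 was at 1.91, 3.44, 5.42 and 3.55 FPKM in controls and 115, 89.6, 111 and 146 FPKM in mutants, 32.3-fold higher on average (log2 change 4.7, SE 0.23, adjusted p 1.8e-06). *Gpx3*, which encodes a secreted glutathione peroxidase, was at 1.58, 7.05, 1.95 and 3.26 FPKM in controls and 34.9, 50.8, 38.9 and 90.04 FPKM in mutants (log2 change 3.66, SE 0.39, adjusted p 0.000101). Both genes were many times higher in every mutant than in any control. *Il33*, which encodes an alarmin cytokine held in the nucleus of barrier cells, was at 2.4, 1.9, 2.14 and 2.53 FPKM in controls and 32.1, 35.6, 38.7 and 33.3 FPKM in mutants (log2 change 3.47, SE 0.10, adjusted p 9.75e-08). *Klk6*, a kallikrein protease gene, was at 0.56, 1.14, 0.935 and 1.08 FPKM in controls and 17.2, 17.2, 17.8 and 14.4 FPKM in mutants (log2 change 3.2, SE 0.12, adjusted p 6.15e-07). For *Il33* and *Klk6* the 4 mutants lay within a narrow band well above all controls. Further rises among the 15 largest were those of *Serpine2*, *Spink5*, *Defb14*, *Defb1*, *Rptn*, *Ly6a*, *Fam46b*, *Nrg1*, *Gm5416* and *Gm20400*, with log2 fold changes from 2.75 to 3.28. *Gm20400* was uneven among mutants, from 3.49 FPKM in mutant 4 to 33.0 FPKM in mutant 2.

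The largest fall was that of *Ccer2*, a gene of unclear function in skin. It was at 77.4, 73, 64.5 and 80.3 FPKM in controls and 0.205, 0.131, 0.457 and 0.221 FPKM in mutants, a 291-fold lower mean (log2 change -5.9, SE 0.11, adjusted p 8.72e-09). *Tbx1*, a T-box transcription factor of hair follicle stem cells, was at 14.9, 15.3, 15.7 and 9.72 FPKM in controls and 0.181, 0.131, 0.153 and 0.215 FPKM in mutants (log2 change -3.65, SE 0.14, adjusted p 7.27e-07). Mutant values of both genes were below 1 FPKM in all 4 libraries. *Alox12e*, which encodes an epidermal lipoxygenase, was at 39.6, 38.4, 34.7 and 37.7 FPKM in controls and 2.6, 1.1, 1.62 and 1.08 FPKM in mutants (log2 change -3.93, SE 0.17, adjusted p 1.03e-06). *Penk*, which encodes proenkephalin, the precursor of the enkephalin opioid peptides, was at 70.3, 84.5, 72 and 94.6 FPKM in controls and 4.81, 5.1, 7.32 and 5.75 FPKM in mutants (log2 change -3.6, SE 0.14, adjusted p 6.15e-07). *Atp6v1b1*, a subunit gene of the vacuolar proton pump, was at 61, 51.4, 44 and 58.3 FPKM in controls and 3.2, 2.91, 3.48 and 2.26 FPKM in mutants (log2 change -3.79, SE 0.13, adjusted p 4.57e-07). The spread within each group was small beside these differences. The metallothionein *Mt4*, the small leucine-rich proteoglycan *Bgn* (biglycan), the cytochrome P450 gene *Cyp2g1*, *Col14a1*, *Prss35*, *Prr9*, *Sox13*, *Lhx2*, *Mir6240* and *Col7a1* completed the 15, with log2 fold changes from -4.02 to -3.07 apart from *Mir6240*, which was listed at 0 in all 4 mutants and at 24.5 to 80.0 FPKM in controls. *Col7a1* was listed at 0 in mutants 1 and 3, with 36.1 and 57.9 FPKM in mutants 2 and 4 against 84.6 to 107 FPKM in controls, and its adjusted p of 0.0418 rose to 0.0551 after scaling. The call was lost without any 1 control (adjusted p 0.0774 to 0.0857), without mutant 1 (0.0947) and without mutant 3 (0.1). It was also lost with sex as a term (0.146) and against the Cre-carrying controls alone (0.186).

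**Figure D3:**
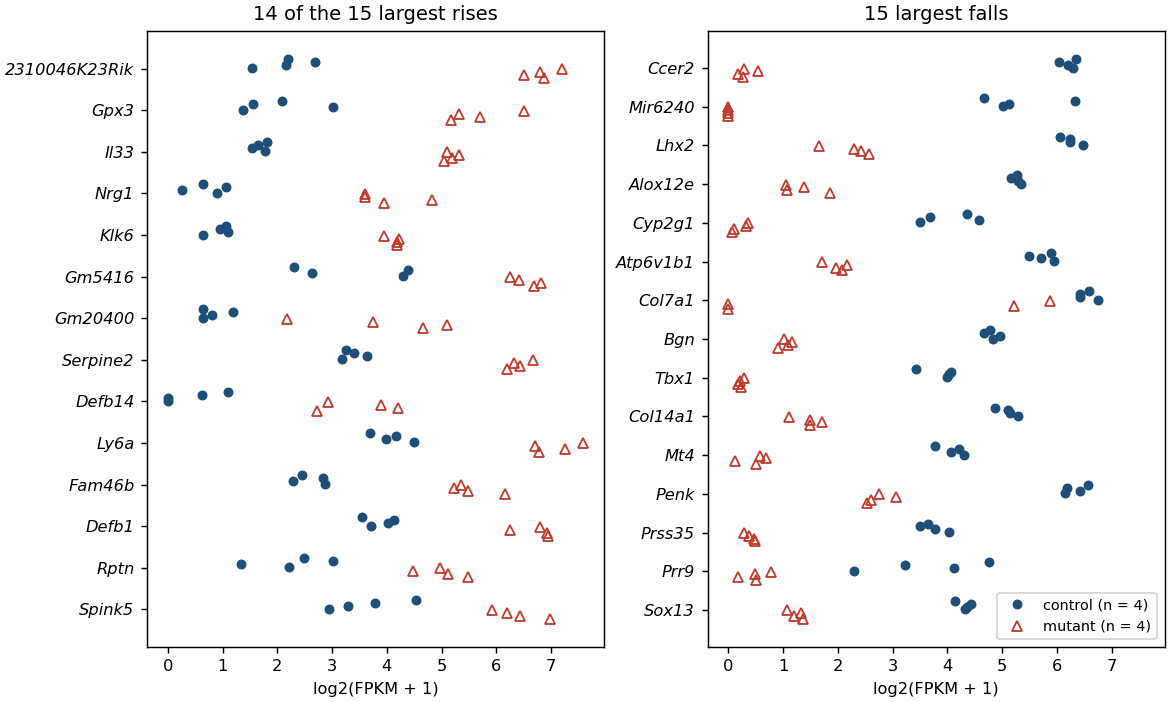
Level of 14 of the 15 genes with the largest rise and of the 15 with the largest fall outside the families left out, as log2(FPKM + 1), with filled circles for the 4 controls and open triangles for the 4 mutants of each gene. Only genes whose groups do not overlap were ranked, so the separation seen here follows from that choice. *Col7a1* and *Gm20400* have the widest spread among mutants.

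Genes of innate defence rose as a group. Of 22 tested antimicrobial and alarmin genes, 16 were higher and 2 lower, with a list median of 1.07, and the counts were the same after scaling. *Defb1*, which encodes a beta-defensin made at resting epithelia, was at 12.1, 15.3, 16.6 and 10.7 FPKM in controls and 122, 120.0, 74.7 and 110.1 FPKM in mutants (log2 change 2.87, SE 0.18, adjusted p 6.6e-06). *Defb14*, the mouse counterpart of an inducible human beta-defensin, was at 0.000, 0.000, 0.532 and 1.14 FPKM in controls and 5.57, 17.4, 13.8 and 6.63 FPKM in mutants (log2 change 3.01, SE 0.37, adjusted p 0.000228). *Slpi*, an inhibitor of leukocyte proteases that also kills microbes, was at 0.526, 0.542, 0.346 and 0.955 FPKM in controls and 18.5, 7.35, 7.34 and 5.94 FPKM in mutants (log2 change 2.64, SE 0.29, adjusted p 0.000136). Every mutant exceeded every control in the 3 genes, and the controls of *Slpi* were all below 1 FPKM. *Duox1* and its maturation factor *Duoxa1*, which together make hydrogen peroxide at the cell surface, increased from 3.84 ± 1.14 to 20.1 ± 3.58 FPKM and from 12 ± 1.77 to 47.6 ± 8.55 FPKM (group means with the SD of 4 libraries, here and below). The peptidoglycan recognition proteins split, *Pglyrp3* rising from 0.89 ± 0.261 to 9.53 ± 3.04 FPKM (log2 change 2.44, adjusted p 2.53e-05) while *Pglyrp4* fell from 17.4 ± 1.63 to 4.94 ± 0.77 FPKM (log2 change -1.64, adjusted p 1.25e-05). The abundant *Ly6d*, which encodes a surface protein of keratinocytes, rose from 1330 ± 160.0 to 2670 ± 415 FPKM.

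Cytokine genes moved in both directions. Of 21 tested genes of the interleukin 1 family and its receptors, 6 were higher and 4 lower (7 and 3 after scaling). Besides *Il33*, *Il1f9*, which encodes the epithelial cytokine IL-36 gamma, rose from 5.24 ± 0.769 to 19.1 ± 4.12 FPKM (log2 change 1.67, adjusted p 5.67e-05). *Gsdmc*, a gasdermin gene, was at 24.7, 18.8, 31.1 and 26.1 FPKM in controls and 149.7, 91.7, 81.3 and 78.6 FPKM in mutants (log2 change 1.92, SE 0.21, adjusted p 0.000137). *Il1r2*, the decoy receptor of interleukin 1, fell from 2.91 ± 0.639 to 0.456 ± 0.343 FPKM. Of 39 other tested cytokine and receptor genes, 7 were higher and 9 lower (11 and 7 after scaling), and without mutant 4 13 were higher. *Il24*, a cytokine of the interleukin 10 family that acts on keratinocytes, was at 0.481, 0.388, 0.379 and 0.375 FPKM in controls and 2.66, 13.2, 3.44 and 4.99 FPKM in mutants (log2 change 2.12, SE 0.36, adjusted p 0.00141). All mutants exceeded all controls, and mutant 2 was more than 2-fold above the other mutants. *Il4ra*, the receptor chain shared by interleukins 4 and 13, rose from 4.2 ± 0.693 to 18.2 ± 7.52 FPKM (log2 change 1.8, adjusted p 0.000693).

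Among the immune cell markers that fell were *Csf1r* and *Cd3g*. *Csf1r*, the growth factor receptor that Langerhans cells depend on, was at 22.5, 33.9, 23.6 and 22.1 FPKM in controls and 4.23, 4.8, 4.23 and 4.86 FPKM in mutants (log2 change -2.24, SE 0.14, adjusted p 5.52e-06). *Cd3g*, a chain of the T cell receptor complex, was at 7.19, 5.19, 3.99 and 9.61 FPKM in controls and 1.2, 1.15, 0.922 and 1.2 FPKM in mutants (log2 change -1.77, SE 0.21, adjusted p 0.000185). In both, the mutants were close together and below every control. Of 18 tested MHC genes, 8 were lower and 0 higher, and those that fell included the class II genes *Cd74* (from 29.4 ± 10.4 to 3.12 ± 0.762 FPKM) and *H2-DMa* (from 6.7 ± 1.14 to 1.61 ± 0.231 FPKM), which myeloid cells express, *Cd74* being one of their markers. The class I light chain *B2m* had 81.5, 92.8, 76.6 and 79.6 FPKM in controls 1 to 4 and 59.1, 64.1, 60.3 and 93.1 FPKM in mutants 1 to 4 (log2 change -0.28, adjusted p 0.149). Mutant 4 was the only mutant within the control range, and without it the adjusted p was 0.0022. Of 13 tested chemokine genes, 6 were lower and 1 higher. The receptor *Cxcr4* fell from 22.6 ± 1.77 to 3.09 ± 1.02 FPKM (log2 change -2.56, adjusted p 1.47e-05) and the decoy receptor *Ackr4* fell from 18 ± 1.07 to 5.17 ± 0.464 FPKM (log2 change -1.63, adjusted p 2.94e-06). *Cxcl14*, the most abundant chemokine of these cells, went from 476 ± 13.7 to 361 ± 38.4 FPKM, with an adjusted p of 0.00545 as deposited and 0.0825 after scaling. Of 30 tested interferon response genes, 10 were lower and 3 higher, close to the background of all genes (7 and 5 after scaling), and *Ifi27l2a* fell from 10.4 ± 2.2 to 1.09 ± 0.462 FPKM. Without control 4, 1 was higher. Myeloid marker sums of 361 to 563 FPKM in controls and 119 to 151 FPKM in mutants stood beside these results, and their part in them was not tested.

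Melanocyte genes were higher but uneven among mutants. *Tyrp1*, an enzyme of pigment synthesis, was at 12.1, 16, 9.3 and 9.21 FPKM in controls and 75.7, 64.4, 31 and 113 FPKM in mutants (log2 change 2.4, SE 0.34, adjusted p 0.000558). *Mlana*, a melanosome protein gene, was at 24.2, 24.2, 20.04 and 15.3 FPKM in controls and 85.8, 87.1, 57.4 and 144 FPKM in mutants (log2 change 2.05, SE 0.25, adjusted p 0.000237). Mutant 3 was the lowest and mutant 4 the highest of the mutants for both, and neither overlapped the controls. *Kit*, the receptor that melanocytes need to enter and stay in the epidermis, rose from 10.8 ± 0.613 to 15.4 ± 2.35 FPKM (log2 change 0.47, adjusted p 0.00837), with an adjusted p of 0.0609 against the Cre-carrying controls alone. After scaling 12 of the 13 markers were higher. Against the Cre-carrying controls alone, in a fit with fewer libraries, 3 of the 13 were called higher.

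Of 29 tested *Serpinb*, *Spink* and cystatin genes, 17 were higher and 4 lower, with a median log2 fold change of 0.65. *Spink5*, which encodes the LEKTI inhibitor of kallikreins, was at 6.65, 8.72, 12.7 and 22.2 FPKM in controls and 126, 85, 71.9 and 59.6 FPKM in mutants (log2 change 2.75, SE 0.34, adjusted p 0.000236). *Serpinb2*, the inhibitor of plasminogen activators known as PAI-2, was at 38.9, 26.8, 45.5 and 40.6 FPKM in controls and 227, 285, 211 and 262 FPKM in mutants (log2 change 2.68, SE 0.16, adjusted p 5.02e-06). *Stfa2*, a stefin that inhibits cathepsins, was at 175, 132, 262 and 166 FPKM in controls and 646, 789, 728 and 1022 FPKM in mutants (log2 change 2.13, SE 0.21, adjusted p 6.73e-05). No mutant overlapped a control in any of the 3. Stefin genes are near-identical copies, so reads may be shared between *Stfa2* and its neighbours and its level is uncertain. Of 29 tested kallikreins and other epidermal proteases, 12 were higher and 5 lower (17 and 4 after scaling). Besides *Klk6*, the calpain gene *Capn2* rose from 24.2 ± 4.32 to 83.4 ± 11.3 FPKM (log2 change 1.75, adjusted p 2.45e-05), and *Asprv1*, the protease that processes filaggrin, rose from 203 ± 38.1 to 431 ± 60.2 FPKM (log2 change 1.09, adjusted p 0.000442). Of 20 tested genes of complement and coagulation, 5 were higher and 4 lower. *Serpine2*, which encodes the thrombin inhibitor protease nexin 1, was at 8.07, 11.4, 9.56 and 8.56 FPKM in controls and 72.5, 85.1, 79.2 and 101 FPKM in mutants (log2 change 3.04, SE 0.13, adjusted p 1.03e-06). *Thbd*, the thrombin receptor thrombomodulin, rose from 4.33 ± 0.705 to 31.7 ± 9.55 FPKM (log2 change 2.58, adjusted p 1.38e-05), whereas *Thbs1*, which encodes the matrix protein thrombospondin 1, fell from 41 ± 3.45 to 9.77 ± 0.564 FPKM (log2 change -1.96, adjusted p 1.03e-06). *Thbs1* values were tight in both groups, from 37.4 to 45.1 FPKM in controls and from 8.95 to 10.2 FPKM in mutants.

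Late differentiation genes were noisy among the controls. *Lor*, which encodes loricrin, the main protein of the cornified envelope, was at 77.1, 127, 211 and 320.0 FPKM in controls and 189.9, 193, 147 and 238 FPKM in mutants (log2 change 0.24, SE 0.38, adjusted p 0.645). *Flg*, which encodes filaggrin, was at 82.7, 119, 196 and 353 FPKM in controls and 146, 129.6, 80.7 and 172 FPKM in mutants (log2 change -0.34, SE 0.41, adjusted p 0.533). Controls alone ranged more than 4-fold for both genes, the mutants lay within or at the edge of that range, and a difference between the groups was not detectable. Of 23 tested late cornified envelope and fused S100 genes, 2 were higher, 1 was lower and 20 did not pass, though the list median was 0.67. The 2 that rose were *Rptn* and *Lce3c*. *Rptn*, the repetin gene, was at 3.61, 1.52, 7.09 and 4.57 FPKM in controls and 43.6, 33.5, 21.4 and 30.3 FPKM in mutants (log2 change 2.75, SE 0.33, adjusted p 0.000217). *Lce3c* was at 0.000, 0.218, 1.19 and 0.119 FPKM in controls and 2.07, 6.69, 4.8 and 3.43 FPKM in mutants (log2 change 1.92, SE 0.32, adjusted p 0.00123). Both were higher in every mutant than in any control. *Lce3c* belongs to a cluster of near-identical genes, so its level is uncertain.

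Lipid genes moved in both directions. Of 39 tested genes of barrier ceramides and lipoxygenases, 17 were higher and 11 lower (17 and 7 after scaling). *Alox12b*, the lipoxygenase that oxidises barrier acylceramides, was at 7.29, 6.81, 14.2 and 14.3 FPKM in controls and 38.6, 26.4, 21.3 and 31.4 FPKM in mutants (log2 change 1.42, SE 0.27, adjusted p 0.00248). *Abca12*, the lipid transporter of lamellar bodies, rose from 4.54 ± 0.861 to 11.6 ± 1.51 FPKM (log2 change 1.19, adjusted p 0.000148), and *Degs1*, the desaturase that makes ceramide, rose from 76.2 ± 9.34 to 149 ± 9.56 FPKM (log2 change 0.96, adjusted p 7.48e-05). *Alox12e*, described above, and *Alox5*, which makes leukotrienes and is known from myeloid cells, fell, the last from 4.83 ± 2.08 to 0.674 ± 0.109 FPKM (log2 change -1.74, adjusted p 0.000215). Of 7 tested sebaceous gland genes, 5 were lower and 1 higher. *Scd1*, the stearoyl-CoA desaturase of sebocytes, was at 15.3, 30.7, 21.9 and 25.5 FPKM in controls and 4.42, 2.79, 4.04 and 4.02 FPKM in mutants (log2 change -2.31, SE 0.20, adjusted p 3.37e-05). *Elovl3*, a fatty acid elongase of sebaceous gland and hair follicle, was at 3.09, 8.94, 5.02 and 6.77 FPKM in controls and 0.034, 0.0579, 0.0675 and 0.0327 FPKM in mutants (log2 change -2.66, SE 0.23, adjusted p 3.71e-05). Both fell in every mutant, and *Elovl3* was below 0.1 FPKM in all 4. *Fabp5*, the fatty acid-binding protein of keratinocytes and the member that rose, was at 604, 617, 966 and 599.9 FPKM in controls and 2888, 2840, 2910 and 3809 FPKM in mutants (log2 change 2.18, SE 0.18, adjusted p 2.39e-05). The very long chain elongases *Elovl4* and *Elovl1* increased from 51.2 ± 10.6 to 90.2 ± 12.2 FPKM and from 133 ± 32.3 to 211 ± 35.7 FPKM, and the desaturase *Fads1* fell from 9.31 ± 0.782 to 3.97 ± 0.323 FPKM. Of 36 tested genes of fatty acid oxidation, 4 were higher and 14 lower (6 and 9 after scaling), with *Cpt1c*, a carnitine palmitoyltransferase, rising from 1.87 ± 0.768 to 12.6 ± 0.763 FPKM (log2 change 2.28, adjusted p 1.96e-05) and the nuclear receptor *Ppard* rising from 22.3 ± 1.21 to 46.9 ± 3.14 FPKM (log2 change 1.04, adjusted p 1.54e-05).

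Of 52 tested cytochromes P450 and genes of retinoid metabolism, 9 were higher and 21 lower (17 and 16 after scaling). The cellular retinoic acid-binding protein gene *Crabp2* was at 9.0, 9.71, 11 and 11.7 FPKM in controls and 61.8, 55.1, 53.6 and 76.2 FPKM in mutants (log2 change 2.46, SE 0.12, adjusted p 2.27e-06). *Rbp2*, a retinol-binding protein gene known from the intestine, rose from 23.3 ± 2.51 to 98.6 ± 19.6 FPKM (log2 change 2.02, adjusted p 1.67e-05). Every mutant was at least 2-fold above every control for both genes. *Cyp2g1*, a cytochrome P450 gene known from the nasal lining, was at 10.3, 23, 11.9 and 19.5 FPKM in controls and 0.0519, 0.0775, 0.258 and 0.288 FPKM in mutants (log2 change -3.81, SE 0.23, adjusted p 5.41e-06). *Cyp4b1* and *Cyp2f2* fell from 19.9 ± 2.56 to 1.64 ± 1.02 FPKM and from 5.69 ± 2.28 to 0.242 ± 0.123 FPKM.

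Of 16 tested genes of desmosomes and corneodesmosomes, the rivets between keratinocytes, 11 were higher and 0 lower, with a median log2 fold change of 0.58. *Dsc2*, a desmocollin gene, was at 4.57, 3.98, 4.59 and 4.26 FPKM in controls and 15.9, 15.3, 15.1 and 10.1 FPKM in mutants (log2 change 1.48, SE 0.14, adjusted p 5.02e-05). *Jup*, which encodes plakoglobin, was at 534, 469, 576 and 505 FPKM in controls and 942, 849, 854 and 846 FPKM in mutants (log2 change 0.75, SE 0.09, adjusted p 0.000202). *Cdsn*, the corneodesmosin gene, was at 5.6, 11.6, 16.5 and 26 FPKM in controls and 49.7, 34.1, 29.3 and 44.5 FPKM in mutants (log2 change 1.49, SE 0.38, adjusted p 0.0112). Groups did not overlap in any of the 3, and *Cdsn* varied more among controls than the others. *Dsg3*, the desmoglein of the lower layers, rose from 38.4 ± 2.63 to 92.2 ± 33.1 FPKM, with mutant 4 at 48.2 FPKM and the other mutants at 86.7 to 124 FPKM. *Gjb2*, which encodes the gap junction protein connexin 26, was at 40.1, 41.2, 55 and 41.9 FPKM in controls and 274, 284, 238 and 194 FPKM in mutants (log2 change 2.44, SE 0.14, adjusted p 4.51e-06), while *Gja1*, which encodes connexin 43, fell from 284 ± 12.1 to 150.0 ± 14.5 FPKM (log2 change -0.93, adjusted p 4.19e-05). *Cgnl1*, a gene of the tight junction plaque, fell from 11.1 ± 0.917 to 0.992 ± 0.40 FPKM (log2 change -2.62, adjusted p 4.02e-06). Over all 33 tested genes of adherens, tight and gap junctions, 5 were higher and 8 lower, with a median of 0.02 (11 and 7 after scaling).

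Of 37 tested genes of hemidesmosomes, laminins and integrins, 20 were lower and 5 higher, with a median log2 fold change of -0.57. *Frem2*, which encodes a protein of the Fraser complex, was at 43.2, 41.4, 39.2 and 46.9 FPKM in controls and 9.57, 7.62, 9.3 and 4.89 FPKM in mutants (log2 change -2.34, SE 0.17, adjusted p 1.65e-05). *Fras1*, its partner, was at 11.3, 10.4, 10.4 and 14.6 FPKM in controls and 3.15, 2.38, 3.25 and 1.86 FPKM in mutants (log2 change -1.8, SE 0.16, adjusted p 3.49e-05). *Col4a5*, a collagen chain of basement membranes, was at 26.1, 18.8, 15.1 and 24.3 FPKM in controls and 6.33, 4.72, 5.06 and 3.39 FPKM in mutants (log2 change -1.9, SE 0.20, adjusted p 8.95e-05). Each was lower in every mutant than in any control. The hemidesmosome integrin *Itgb4* went the other way, from 83.9 ± 4.06 to 140.0 ± 22.4 FPKM (log2 change 0.72, adjusted p 0.000805). *Col17a1*, the transmembrane collagen of hemidesmosomes, had 373 ± 27.9 and 318 ± 53.3 FPKM (log2 change -0.25, adjusted p 0.146). Of 21 tested collagens, 14 were lower and 1 higher, and of 24 tested metalloproteases and inhibitors, 13 were lower and 2 higher. *Adamts17* fell from 24.6 ± 1.43 to 2.25 ± 0.53 FPKM (log2 change -2.99, adjusted p 1.03e-06), *Mmp2*, which encodes gelatinase A, fell from 25.3 ± 3.73 to 5.61 ± 1.21 FPKM (log2 change -2.0, adjusted p 1.74e-05), and *Adam8* rose from 8.64 ± 2.96 to 23.9 ± 2.27 FPKM (log2 change 1.42, adjusted p 0.000424). The fibroblast markers *Postn* (periostin) and *Col6a1* fell from 282 ± 15.9 to 44.2 ± 13 FPKM and from 5.77 ± 2.17 to 0.826 ± 0.316 FPKM, and the sum over the fibroblast list was 667 to 769 FPKM in controls and 312 to 418 FPKM in mutants beside these results. Their part in the falls of collagens and metalloproteases was not tested.

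Against all 4 controls, most tested genes of the hair follicle progenitor and hedgehog lists were lower. Of 16 tested progenitor genes, 14 were lower and 0 higher, with a median log2 fold change of -1.18. Alongside *Tbx1* in this list, *Lgr5*, a stem cell marker of the follicle, was at 8.8, 8.25, 7.6 and 6.83 FPKM in controls and 0.254, 0.331, 0.148 and 0.119 FPKM in mutants (log2 change -2.87, SE 0.11, adjusted p 5.98e-07). *Nfatc1*, which keeps bulge stem cells quiescent, fell from 21.6 ± 1.87 to 5.49 ± 1.06 FPKM (log2 change -1.81, adjusted p 1.07e-05). Of 13 tested hedgehog pathway genes, 11 were lower and 0 higher (9 and 0 after scaling). Against the Cre-carrying controls alone 5 of the 13 were called lower. *Shh*, the ligand made by the follicle epithelium, was at 17.4, 14.2, 14.5 and 12.7 FPKM in controls and 3.72, 4.0, 4.61 and 3.01 FPKM in mutants (log2 change -1.7, SE 0.13, adjusted p 1.73e-05). *Gli1*, a transcription factor that hedgehog signalling itself switches on, was at 59.4, 52.3, 49.6 and 58.6 FPKM in controls and 14.8, 10.5, 14.1 and 10.7 FPKM in mutants (log2 change -2.06, SE 0.12, adjusted p 4.92e-06). Ligand and target fell 3.84-fold and 4.39-fold, each without overlap. *Disp1*, which releases the ligand, fell from 12.7 ± 1.4 to 4.24 ± 0.775 FPKM.

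Of 40 tested Wnt pathway genes, 25 were lower and 0 higher, with a median log2 fold change of -0.53 (23 lower and 1 higher after scaling). *Notum*, which encodes a secreted enzyme that inactivates Wnt ligands and is itself a Wnt target, was at 9.93, 8.13, 7.07 and 8.03 FPKM in controls and 1.07, 1.04, 1.26 and 0.771 FPKM in mutants (log2 change -2.19, SE 0.12, adjusted p 3.61e-06). The receptor gene *Fzd7* fell from 17.8 ± 1.13 to 4.24 ± 0.868 FPKM (log2 change -1.86, adjusted p 1.2e-05), the antagonist *Sfrp1* fell from 6.13 ± 0.586 to 0.708 ± 0.263 FPKM (log2 change -2.07, adjusted p 4.92e-06) and the ligand *Wnt5a* fell from 1.98 ± 0.467 to 0.0819 ± 0.0271 FPKM (log2 change -1.45, adjusted p 2.7e-05). Ligands, receptors and antagonists were all among the falls. *Ctnnb1*, which encodes beta-catenin, the shared effector, fell less, with a log2 fold change of -0.40. Among 17 tested Eda and FGF genes, 8 were lower and 4 higher (8 and 6 after scaling). *Edar*, the receptor that starts the hair placode, was at 32.6, 31.5, 29.2 and 24.9 FPKM in controls and 6.81, 9.38, 10.4 and 4.03 FPKM in mutants (log2 change -1.88, SE 0.23, adjusted p 0.000243). *Fgfr1* fell from 52.7 ± 2.5 to 13.2 ± 3.79 FPKM (log2 change -1.97, adjusted p 4.44e-05). *Etv4*, a transcription factor that FGF signalling induces, rose from 38 ± 5.32 to 104 ± 18.4 FPKM (log2 change 1.42, adjusted p 7.09e-05), and *Fgfbp1*, which frees FGFs from the matrix, rose from 211 ± 26.4 to 340.0 ± 26.4 FPKM (log2 change 0.70, adjusted p 0.000722).

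Of 35 tested BMP and TGF-beta genes, 20 were lower and 1 higher. *Tgfb2*, a ligand that promotes follicle growth, was at 11.7, 9.85, 9.64 and 9.42 FPKM in controls and 1.08, 1.21, 1.63 and 0.493 FPKM in mutants (log2 change -2.43, SE 0.17, adjusted p 1.1e-05). *Tgfb3* fell from 25 ± 1.85 to 3.56 ± 0.655 FPKM (log2 change -2.52, adjusted p 1.34e-06) and *Bmp4*, a ligand of hair shaft differentiation, fell from 10.1 ± 0.451 to 1.56 ± 0.241 FPKM (log2 change -2.12, adjusted p 1.32e-06). The member that rose, the receptor gene *Tgfbr2*, was at 19, 15.4, 14.7 and 15.8 FPKM in controls and 35.8, 51.6, 31.9 and 27.3 FPKM in mutants (log2 change 1.09, SE 0.18, adjusted p 0.00109). Ligands and receptor moved apart, each without overlap. Of 18 tested Notch genes, 2 were higher and 5 lower (5 and 5 after scaling), with a median of 0.03. Without mutant 4, 5 were higher, and without control 1 or 2 or mutant 2 or 3, 1. Without control 4, 0 were higher by limma and 2 at an unadjusted p under 0.05. *Heyl*, a Notch target, fell from 3.12 ± 0.47 to 0.418 ± 0.0865 FPKM (log2 change -1.53, adjusted p 1.34e-05). Of 16 hair shaft and inner root sheath genes other than keratins, 12 were lower and 2 higher. *Msx1* and *Hoxc13*, homeobox genes of the hair matrix and shaft, fell from 2.93 ± 0.772 to 0.0498 ± 0.0349 FPKM and from 5.64 ± 0.861 to 0.812 ± 0.0942 FPKM. *Tchh*, which encodes trichohyalin of the inner root sheath, was at 4.27, 15.9, 11.2 and 23.2 FPKM in controls and 3.64, 3.89, 3.76 and 3.46 FPKM in mutants (log2 change -1.44, SE 0.39, adjusted p 0.0147). Controls spread widely for *Tchh* and mutants did not. Dermal cells also express genes of these pathways, and the summed fibroblast markers, 667 to 769 FPKM in controls and 312 to 418 FPKM in mutants, moved with them. Their part in these falls was not tested.

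**Figure D4:**
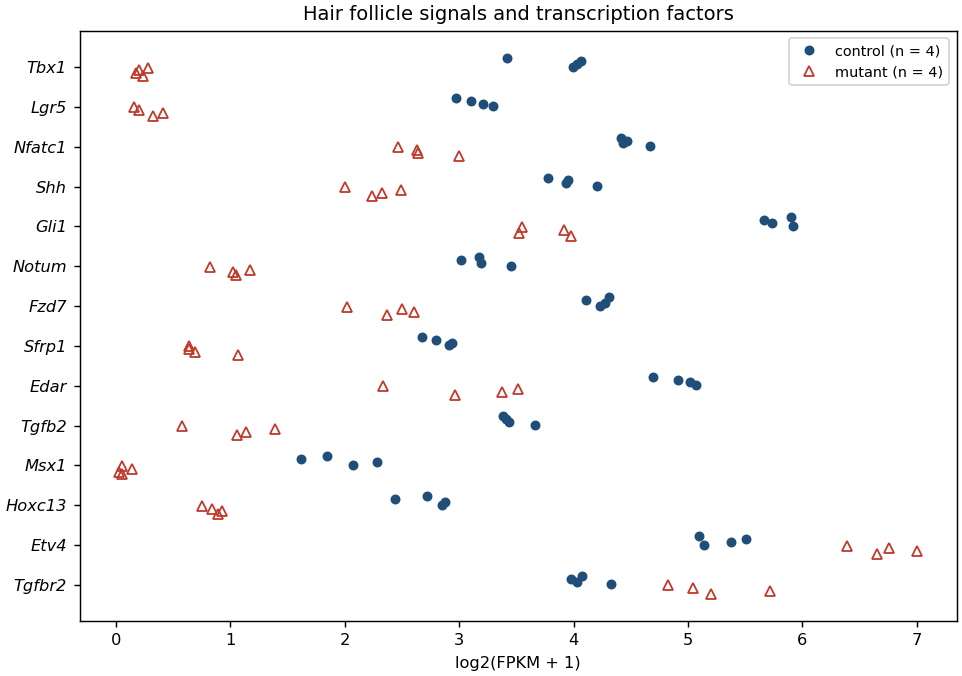
Level of 14 signalling and transcription factor genes of the hair follicle as log2(FPKM + 1), with filled circles for the 4 controls and open triangles for the 4 mutants. The mutants lie below the controls for 12 genes and above them for *Etv4* and *Tgfbr2*.

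Of 45 tested transcription factors of epidermal differentiation, 8 were higher and 20 lower (11 and 15 after scaling). *Zfp750* and *Klf4*, which drive the granular program, increased from 49.6 ± 4.12 to 90.6 ± 7.75 FPKM and from 145 ± 11.8 to 241 ± 42.4 FPKM (log2 changes 0.85 and 0.72). *Ehf*, an ETS factor of epithelial cells, was at 0.76, 0.947, 1.17 and 0.746 FPKM in controls and 4.58, 4.27, 2.81 and 3.02 FPKM in mutants (log2 change 1.28, SE 0.15, adjusted p 0.000158). *Nfix* and *Nfib*, nuclear factor I genes of hair follicle stem cells, fell from 44.6 ± 5.93 to 17.6 ± 3.03 FPKM and from 28 ± 2.3 to 11.7 ± 1.46 FPKM (log2 changes -1.3 and -1.19). Of 25 tested *Hox* genes, 12 were lower and 1 higher. The 1 that rose, *Hoxb9*, which helps to set position along the trunk, was at 1.78, 0.727, 1.27 and 0.929 FPKM in controls and 5.57, 6.21, 4.41 and 5.52 FPKM in mutants (log2 change 1.58, SE 0.16, adjusted p 7.74e-05). Its mutants were all at 4 FPKM or more, whereas no control reached 2 FPKM.

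Of 38 tested genes known from the wound edge, 15 were higher, 6 lower and 17 not called (17 higher and 6 lower after scaling). *Fosl1*, which encodes the AP-1 subunit FRA1, was at 1.56, 1.93, 3.3 and 1.03 FPKM in controls and 7.48, 19.8, 14.6 and 28.2 FPKM in mutants (log2 change 2.56, SE 0.36, adjusted p 0.000532). *Hbegf*, an EGF receptor ligand, was at 4.0, 4.22, 5.4 and 1.92 FPKM in controls and 8.35, 17.4, 13.4 and 10.05 FPKM in mutants (log2 change 1.45, SE 0.27, adjusted p 0.00244). *Ptges*, which makes prostaglandin E, was at 11.8, 14.6, 18.3 and 10.1 FPKM in controls and 86.2, 108, 75.9 and 66.9 FPKM in mutants (log2 change 2.54, SE 0.19, adjusted p 1.67e-05). Mutant values lay above all control values for these genes, with the widest spread for *Fosl1*. *Pla2g4e*, a phospholipase gene of the pathway, rose from 1.76 ± 0.497 to 7.44 ± 0.433 FPKM (log2 change 1.63, adjusted p 3.35e-05). Over 45 tested prostaglandin and phospholipase genes, 13 were higher, 8 lower and 24 not called, with a median log2 fold change of 0.01 (16 higher and 6 lower after scaling). Among 33 tested AP-1 and immediate early genes, 5 were higher, 6 lower and 22 not called (7 and 3 after scaling). *Fos*, an AP-1 gene that the handling of cells can induce, was at 504, 1386, 1227 and 226 FPKM in controls and 502, 748, 617 and 188 FPKM in mutants (log2 change -0.54, SE 0.61, adjusted p 0.508). *Jun*, its partner, was at 279, 652, 561 and 144 FPKM in controls and 197, 449.96, 397 and 137 FPKM in mutants (log2 change -0.40, SE 0.52, adjusted p 0.568). Both genes ranged widely within each group, and the groups overlapped. *Egr3* fell from 27.9 ± 2.0 to 11.2 ± 2.75 FPKM (log2 change -1.27, adjusted p 0.000192).

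Promoters were searched for the letters of known motifs as a description of the genes that rose. RefSeq promoter windows of GRCm38.p6, 250 bases before to 50 after the start of a gene, were found for 236 of the 339 genes higher at least 2-fold, 475 of the 686 lower at least 2-fold, 9367 of the tested genes and 27025 genes in all. The AP-1 letters TGANTCA, which read the same on both strands, occurred in 14.8% of the windows of genes that rose, 5.89% of those that fell, 4.91% of those tested and 7.93% of all windows. The TATA box letters TATAAA, searched on both strands, occurred in 15.3, 8.84, 6.89 and 14.2% of the same 4 sets. The antioxidant response letters TGACNNNGC, which can overlap AP-1 letters, occurred in 13.1, 11.8, 14.6 and 12.5%. In a count added after the data were seen, without the families left out here, the AP-1 letters were in 12.5% and the TATA box letters in 11.5% of 208 windows of genes that rose. A match of letters is a description and not a bound site. Windows of 4 called genes are shown, bases 250 to 1 before the start, 5′ to 3′ on the strand of the gene, because these genes rose and hold the AP-1 letters, which are in capitals. *Serpinb2* and *Rptn* also hold a TATA box in the bases shown, and *Srxn1*, which encodes the antioxidant enzyme sulfiredoxin, holds the AP-1 letters 2 times.
Serpinb2, chr1:107511173-107511422, plus strand: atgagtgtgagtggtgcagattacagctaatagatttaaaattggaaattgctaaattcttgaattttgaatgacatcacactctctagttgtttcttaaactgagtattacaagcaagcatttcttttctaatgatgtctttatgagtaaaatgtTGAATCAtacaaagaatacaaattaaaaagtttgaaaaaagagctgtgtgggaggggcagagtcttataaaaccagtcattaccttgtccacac
Rptn, chr3:93393449-93393698, plus strand: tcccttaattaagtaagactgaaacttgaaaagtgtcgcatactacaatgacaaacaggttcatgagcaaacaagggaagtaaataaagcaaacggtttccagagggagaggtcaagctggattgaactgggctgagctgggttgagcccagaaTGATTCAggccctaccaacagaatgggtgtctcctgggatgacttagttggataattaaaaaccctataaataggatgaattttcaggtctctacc
Srxn1, chr2:152105274-152105523, plus strand: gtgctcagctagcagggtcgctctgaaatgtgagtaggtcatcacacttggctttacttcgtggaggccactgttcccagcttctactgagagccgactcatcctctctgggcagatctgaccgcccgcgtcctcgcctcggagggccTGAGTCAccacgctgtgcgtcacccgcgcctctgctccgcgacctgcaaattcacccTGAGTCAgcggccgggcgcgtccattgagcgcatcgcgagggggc
Capn2, chr1:182517611-182517860, minus strand: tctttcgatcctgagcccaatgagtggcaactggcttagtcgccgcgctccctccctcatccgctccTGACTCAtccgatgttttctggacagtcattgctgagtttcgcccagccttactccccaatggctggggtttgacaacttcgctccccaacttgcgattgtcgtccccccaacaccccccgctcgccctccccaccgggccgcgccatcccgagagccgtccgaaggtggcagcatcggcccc
The matches began 94, 96 and 183 bases before the start in *Serpinb2*, *Rptn* and *Capn2*, and 102 and 45 bases before it in *Srxn1*.

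Among genes that answer to oxidants and metals, single members moved far and in both directions. Of 39 tested NRF2 antioxidant genes, 11 were higher and 11 lower (16 and 9 after scaling). *Srxn1* was at 3.96, 3.11, 5.08 and 3.07 FPKM in controls and 16.6, 17.7, 20.3 and 17.8 FPKM in mutants (log2 change 2.01, SE 0.14, adjusted p 1.2e-05). *Hmox1*, which encodes heme oxygenase 1, rose from 5.82 ± 1.02 to 16.1 ± 1.7 FPKM (log2 change 1.33, adjusted p 5.23e-05), and the aldo-keto reductase gene *Akr1b8* rose from 7.34 ± 1.87 to 27.2 ± 1.64 FPKM (log2 change 1.78, adjusted p 2.81e-05). The glutathione transferases *Gstm2* and *Gstm1* fell from 76.9 ± 4.82 to 26.3 ± 5.58 FPKM and from 28.9 ± 1.93 to 8.7 ± 3.06 FPKM, and as close copies they may share reads. Of 21 tested metallothionein and metal ion genes, 9 were lower and 3 higher (8 and 7 after scaling, and 1 higher without control 1 or 4 or mutant 2 or 3). *Slc40a1*, which encodes the iron exporter ferroportin and is also known from macrophages, was at 21.8, 24.8, 22.4 and 27.3 FPKM in controls and 5.76, 7.3, 8.0 and 5.32 FPKM in mutants (log2 change -1.73, SE 0.13, adjusted p 1.67e-05). *Heph*, the ferroxidase hephaestin, and *Steap4*, a metalloreductase, fell from 10.3 ± 1.43 to 1.68 ± 0.534 FPKM and from 6.13 ± 0.329 to 0.773 ± 0.421 FPKM. These 3 genes were lower in every mutant, but 9 of the 21 tested members of the list were not called.

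Genes of glycolysis changed in both directions, and more of them rose. Of 36 tested genes of glycolysis and the pentose phosphate path, 15 were higher and 8 lower (16 and 6 after scaling). *Pkm*, which encodes pyruvate kinase, was at 333, 369, 438 and 360.2 FPKM in controls and 634, 649.8, 692 and 656 FPKM in mutants (log2 change 0.81, SE 0.10, adjusted p 0.000177). *Slc2a3*, the glucose transporter GLUT3, was at 1.13, 1.09, 0.925 and 1.07 FPKM in controls and 2.43, 3.52, 4.89 and 4.63 FPKM in mutants (log2 change 1.22, SE 0.17, adjusted p 0.000414). *Gapdh* rose from 596 ± 86 to 987 ± 188 FPKM (log2 change 0.72, adjusted p 0.00444). *Pdk2*, a kinase that restrains pyruvate dehydrogenase, fell from 6.32 ± 0.856 to 2.35 ± 0.31 FPKM (log2 change -1.12, adjusted p 8.44e-05). *Pkm*, *Slc2a3* and *Gapdh* were above all controls in each mutant, and *Pdk2* below them. Of 13 tested glycogen genes, 6 were lower and 0 higher (4 and 2 after scaling), among them the phosphorylase *Pygb*, from 51.5 ± 5.47 to 22.8 ± 4.21 FPKM (log2 change -1.15, adjusted p 0.000206). Of 81 nuclear subunits of oxidative phosphorylation, 6 were higher and 5 lower as deposited, and 22 and 2 after scaling. Single libraries decided these counts: 3 were higher without any 1 control or mutant 3, 11 without mutant 1, and 13 were lower without mutant 4, 3 without mutant 2 or 3 and 2 without control 1 or 2. With sex as a term 30 were higher and 3 lower. *Ndufa4*, a subunit gene of the respiratory chain, was at 235, 236, 246 and 215 FPKM in controls and 342, 417, 428 and 487 FPKM in mutants (log2 change 0.83, SE 0.11, adjusted p 0.000346).

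Of 71 cytosolic ribosomal protein genes, 0 were called in either direction as deposited and 5 were higher after scaling, with medians of 0.09 and 0.25. With sex as a term in the model 27 were higher, and after quantile normalization 19 were lower, so the direction depended on the setting. At an unadjusted p under 0.05, 2 of the 71 differed as deposited. Of 80 mitochondrial ribosomal protein genes, 9 were higher and 2 lower, and 28 and 1 after scaling, while without control 4 5 were higher and without mutant 4 8 were lower. With sex as a term 28 were higher. Against the Cre-carrying controls alone 0 were called by limma, while 5 higher and 2 lower had an unadjusted p under 0.05. Of 48 proteasome genes, 14 were higher and 5 lower, and 25 and 2 after scaling. Without control 1, 2, 3 or 4, 8, 9, 8 and 7 were higher, and 9 without mutant 3. Against the Cre-carrying controls alone 1 was higher and 3 were lower, and after quantile normalization 9 were higher. The members that fell included *Psmb8*, a subunit of the immunoproteasome, from 4.16 ± 0.725 to 2.1 ± 0.299 FPKM (log2 change -0.73, adjusted p 0.00133), which immune cells express. Of 32 heat shock and chaperone genes, 11 were higher and 6 lower (17 and 2 after scaling, and 3 lower without control 2 or 4), and *Hspb1*, which encodes a small heat shock protein, rose from 132 ± 8.28 to 304 ± 124 FPKM (log2 change 1.12, adjusted p 0.00319). Of 43 genes of the unfolded protein and integrated stress response, 11 were higher and 6 lower (20 and 5 after scaling, and 7 higher without control 4), and *Asns*, the asparagine synthetase that ATF4 induces, rose from 34.9 ± 3.34 to 56.1 ± 2.89 FPKM (log2 change 0.67, adjusted p 0.000255).

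Many replication genes were lower in small steps, and most mitotic genes were not called. Of 53 tested DNA replication genes, 30 were lower and 1 higher, with a median log2 fold change of -0.32, against a median of -0.15 for all genes. After median-of-ratios scaling 15 were lower and 2 higher. *Mcm6*, a subunit of the replicative helicase, was at 86.3, 97.2, 90.4 and 87.1 FPKM in controls and 57.4, 62.6, 66.1 and 43.5 FPKM in mutants (log2 change -0.66, SE 0.12, adjusted p 0.0025). *Pcna*, the sliding clamp, was at 146, 174, 147 and 148 FPKM in controls and 104, 125, 124 and 137 FPKM in mutants (log2 change -0.33, SE 0.10, adjusted p 0.0267). Its call was lost after scaling (adjusted p = 0.242), without control 2 (0.0792) or 4 (0.0501) and without mutant 1 (0.0511) or 3 (0.0537). It was also lost with sex as a term (0.0819) and against the Cre-carrying controls alone (0.0867). The 1 that was higher, *Rrm2*, a ribonucleotide reductase subunit, had overlapping groups, from 70.3 ± 10.1 to 95.9 ± 16.1 FPKM, and was not called without control 1 or 4 or mutant 2, 3 or 4 (adjusted p 0.0644 to 0.0975). Of 76 tested mitosis genes, 3 were higher, 9 lower and 64 not called, with a median of -0.11 (5 and 3 after scaling). Without mutant 4, 20 were lower, without control 3 or mutant 3, 5, without control 4, 3, and without mutant 1, 7 were higher. *Anln*, which encodes anillin of the cleavage furrow, was at 34.3, 31.3, 34.5 and 38 FPKM in controls and 42.7, 55.8, 46.7 and 45.6 FPKM in mutants (log2 change 0.45, SE 0.10, adjusted p 0.00522), higher in every mutant than in any control. Of 36 tested histones, 10 were lower and 0 higher, but 4 were lower after scaling, below the 19.3% of all genes, and 4 without control 2. After quantile normalization 0 were lower by limma and 1 at an unadjusted p under 0.05. Of 41 genes of homologous recombination and Fanconi repair, 16 were lower and 1 higher (6 and 1 after scaling, and 10 lower without control 4).

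**Figure D5:**
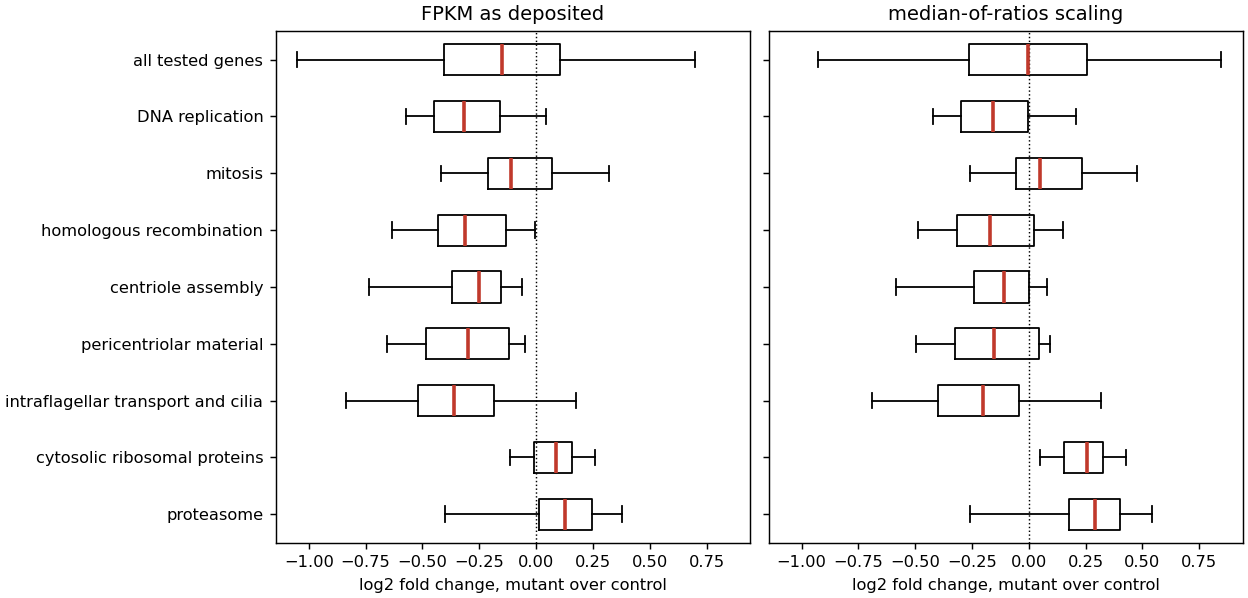
Log2 fold changes (mutant over control) of the tested members of 8 lists and of all 13033 genes, as FPKM were deposited (left) and after median-of-ratios scaling (right), as boxes from the first to the third quartile with a line at the median and whiskers from the 5th to the 95th percentile. Medians of DNA replication and cilia genes lie below that of all genes under both scalings, and those of mitosis and ribosomal protein genes above it.

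The *Myc* genes parted. *Mycn*, the form of embryonic progenitors and hair matrix, was at 8.89, 10.8, 11.5 and 13.1 FPKM in controls and 0.791, 1.14, 1.05 and 0.847 FPKM in mutants (log2 change -2.62, SE 0.12, adjusted p 1.67e-06). *Myc* was at 30.8, 39.4, 41.1 and 28.6 FPKM in controls and 57.7, 75.8, 64.8 and 88.6 FPKM in mutants (log2 change 1.01, SE 0.16, adjusted p 0.000904). *Mycl* fell from 39.6 ± 2.64 to 13.3 ± 3.46 FPKM (log2 change -1.53, adjusted p 0.000112), and *Mxd3*, of the same network, fell from 14.5 ± 1.43 to 5.7 ± 0.93 FPKM (log2 change -1.21, adjusted p 6.95e-05). *Myc* was above, and the other 3 were below, every control in all 4 mutants. The list of cyclins and inhibitors also holds *Mycn* and *Myc*, its largest fall and rise. Of its 31 tested genes, these *Myc* genes included, 3 were higher and 12 lower (5 and 9 after scaling). *Cdkn2b*, which encodes the inhibitor p15, was at 3.76, 3.91, 4.21 and 3.61 FPKM in controls and 7.69, 7.84, 7.84 and 7.85 FPKM in mutants (log2 change 0.85, SE 0.08, adjusted p 4.94e-05), whereas *Cdkn1b*, which encodes p27, fell from 22.6 ± 1.62 to 12.8 ± 1.57 FPKM (log2 change -0.78, adjusted p 0.000343).

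On the log2(FPKM + 1) scale, no called gene of the centrosome lists, which leave out *Cenpj*, differed by 2-fold or more. Of 31 tested genes of centriole assembly, *Cenpj* not among them, 12 were lower and 0 higher (6 and 0 after scaling), and of 29 of the pericentriolar material, 14 were lower and 1 higher (5 and 1 after scaling, and 9, 8, 8 and 7 lower without control 1, 2, 3 or 4). After scaling these shares were near the 19.3% of all genes that were lower. *Cntrob*, which encodes centrobin of the daughter centriole, was at 9.12, 9.08, 8.32 and 11.1 FPKM in controls and 5.51, 4.5, 5.65 and 4.91 FPKM in mutants (log2 change -0.76, SE 0.11, adjusted p 0.000583). *Ccp110*, which caps centrioles, fell from 4.95 ± 0.162 to 2.76 ± 0.527 FPKM (log2 change -0.68, adjusted p 0.0016), and *Pcm1*, the scaffold of centriolar satellites, fell from 21.4 ± 1.3 to 13.4 ± 2.39 FPKM (log2 change -0.65, adjusted p 0.00308). These falls were small and separate from the controls in all mutants. Of 52 tested genes of intraflagellar transport and cilia, 30 were lower and 1 higher, with a median of -0.36 (20 and 1 after scaling). *Kif7*, a kinesin of the ciliary tip that regulates GLI proteins, was at 6.33, 5.89, 6.21 and 6.28 FPKM in controls and 2.04, 2.17, 2.58 and 2.4 FPKM in mutants (log2 change -1.12, SE 0.09, adjusted p 1.96e-05). *Tmem231*, a gene of the transition zone, fell from 5.6 ± 0.348 to 2.34 ± 0.22 FPKM (log2 change -0.98, adjusted p 4.6e-05).

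Guidance genes were more often lower than higher, while channels and transporters moved in both directions. Of 46 tested axon guidance ligands and receptors, 28 were lower and 4 higher (21 and 5 after scaling). *Nrp2*, a semaphorin receptor, was at 31, 25.6, 21.4 and 25.5 FPKM in controls and 4.25, 4.25, 4.0 and 1.97 FPKM in mutants (log2 change -2.57, SE 0.20, adjusted p 1.74e-05). *Slit1* and *Robo3*, which encode a ligand and a receptor of one family, were both near 0 in controls and increased from 0.253 ± 0.16 to 2.82 ± 0.415 FPKM and from 0.124 ± 0.141 to 4.06 ± 1.58 FPKM (log2 changes 1.61 and 2.13). Of 64 tested aquaporins and ion channels, 13 were higher and 31 lower (14 and 24 after scaling). *Trpv4*, a channel of warmth and osmotic stretch, fell from 9.85 ± 1.03 to 2.25 ± 0.361 FPKM (log2 change -1.74, adjusted p 7.53e-06). *Aqp3*, the glycerol and water channel of the epidermis, rose from 253 ± 37.4 to 410.0 ± 24.6 FPKM (log2 change 0.70, adjusted p 0.000862). Of 205 tested solute carriers, 36 were higher and 62 lower as deposited, and 52 and 35 after scaling. Among all genes 11.7% were higher and 30.7% lower as deposited, and 18.9% and 19.3% after scaling. The share of solute carriers that fell was thus no larger than that of all genes, and the share that rose was above it. *Slc16a10*, a transporter of aromatic amino acids and thyroid hormone, fell from 9.11 ± 1.43 to 0.938 ± 0.082 FPKM (log2 change -2.37, adjusted p 1.68e-06), and *Slc10a6*, a transporter of steroid sulfates, rose from 2.72 ± 1.15 to 10.7 ± 2.15 FPKM (log2 change 1.69, adjusted p 0.000328).

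In the insulin-like growth factor pathway, 5 of 25 tested genes were higher and 11 lower (7 and 8 after scaling). The binding proteins moved apart. *Igfbp5* was at 7.01, 8.97, 5.92 and 13.3 FPKM in controls and 0.224, 0.228, 0.398 and 0.185 FPKM in mutants (log2 change -2.91, SE 0.20, adjusted p 1.25e-05). *Igfbp6* was at 4.94, 2.6, 6.23 and 2.35 FPKM in controls and 33.8, 19.5, 20.5 and 19.8 FPKM in mutants (log2 change 2.31, SE 0.27, adjusted p 0.000183). *Igf2* fell from 493 ± 43.1 to 232 ± 148 FPKM (log2 change -1.27, adjusted p 0.0134), with 449 FPKM in mutant 4 and 138 to 201 FPKM in the others, and the neighbouring imprinted RNA *H19* was at 4639, 4200, 4106 and 4529 FPKM in controls and 2258, 2500, 3125 and 4626 FPKM in mutants (log2 change -0.54, adjusted p 0.0667). Mutant 4 was within the control range for *H19* and the other 3 mutants below it, and without mutant 4 its adjusted p was 0.00206. *Tead2*, a transcription factor of the Hippo pathway, fell from 21.9 ± 1.56 to 7.97 ± 0.514 FPKM (log2 change -1.35, adjusted p 5.66e-06).

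Mutants were homozygous and controls heterozygous for the floxed allele, so the DNA that travels with it can differ between the groups. Within 5 Mb of *Cenpj* on each side, 108 genes were tested, 13 were higher and 45 lower (53.7% called), with a median log2 fold change of -0.21. On the rest of chromosome 14, 328 genes were tested, 41 were higher and 105 lower (44.5% called), with a median of -0.14. *Gjb2*, described above, lies within this window, at chr14:57098600-57104702 on the minus strand. Effects of the linked DNA and of the loss of *Sas-4* cannot be told apart for these genes.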

How the data were processed

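Epidermal keratinocytes of newborn mice were profiled by RNA-seq in 8 libraries, 4 of controls and 4 of *Sas-4* mutants. According to the submitters' notes and the study's methods, libraries were demultiplexed with bcl2fastq 2.17.1.14 or 2.18.0.12, checked with FastQC 0.11.5 and run through the QuickNGS pipeline on mm10. The deposited values are FPKM per gene, made by the authors, and keep no read numbers, so absolute depth is unknown and no count model was used. Columns of the authors' own comparisons were not used. For the aligner, no name is given in the sources used here.

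Genes with at least 1 FPKM in 4 of the 8 libraries (13033 of 49452) were tested on log2(FPKM + 1), a pseudocount of 1, with limma 3.58.1 in R 4.3.3 (linear model, mean trend, two-sided, Benjamini-Hochberg over all tested genes, threshold 0.05). Library-level values were compared with exact permutation tests over the 35 unordered splits of 4 against 4. In simulated data on 13033 genes, true changes of 1.5-fold were found in 43.3% of 67 genes. Those of 2-fold were found in 86.6% of 67 and those of 4-fold in 100% of 66, beside 12 false calls. Changes were placed only in genes above a floor of expression, and all other genes were left unchanged. With 5515 calls in the real data, the adjustment for multiple tests differs, so these shares do not measure the power reached here. The members and the gene lists were chosen with earlier results of these data known. Genes named in the text were, outside keratins, *Sprr*, *S100a* and p53 targets, the 15 largest rises and 15 largest falls without overlap between groups, and within each list up to 6 with the smallest adjusted p, the 2 of highest mean FPKM, and the largest rise and fall, plus *Cenpj*; some of these are not reported here. A list is described by its counts and median only. Motif letters were searched in RefSeq promoters of GRCm38.p6, matched by symbol, taking the first promoter listed for a gene. Alternatives were other scalings, filters and pseudocounts, array weights, sex or replicate number as a term, Cre-carrying controls alone and leaving out each library. Python 3.11.15, pandas 2.3.3, numpy 2.4.6, scipy 1.17.1 and matplotlib 3.10.9 were used.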

Additional observations from a re-analysis of the deposited data

Results flagged for a closer look

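In groups of 4 libraries, 26 of 382 sets of values held 1 library whose gap to its nearest neighbour exceeded Dixon's 95% critical share of the group's range. Chance alone flags about 1 in 20 groups.

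Mutant 4 accounted for 6 of the 26. It was the highest mutant for *B2m* (93.1 FPKM, the others 59.1 to 64.1), for *Fabp5* (3809 FPKM, the others 2840 to 2910) and, through *Fabp5*, for the summed sebaceous gland markers (3873 FPKM, the others 2886 to 2957). It was the lowest mutant for *Dsc2* (10.1 FPKM, the others 15.1 to 15.9), *Klk6* (14.4 FPKM, the others 17.2 to 17.8) and *Nrp2* (1.97 FPKM, the others 4.0 to 4.25).

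Among the other mutants, mutant 1 was highest for *Igfbp6* (33.8 FPKM), *Jup* (942 FPKM), *Sfrp1* (1.1 FPKM) and *Slpi* (18.5 FPKM), and lowest for *Cdkn2b* (7.69 FPKM). Mutant 2 was highest for *Hmox1* (18.6 FPKM) and mutant 3 lowest for *Cd3g* (0.922 FPKM).

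Among controls, control 2 was highest for *Csf1r* (33.9 FPKM, the others 22.1 to 23.6), *Egr3* (30.9 FPKM) and *Pcna* (174 FPKM). It was also highest for the summed markers of myeloid cells (563 FPKM, the others 361 to 378), neutrophils (2.01 FPKM), endothelial cells (10.8 FPKM) and adipocytes (7.35 FPKM). Control 3 was highest for *Fabp5* (966 FPKM), *Gjb2* (55 FPKM) and *Mir6240* (80.0 FPKM), and control 1 for *Ccp110* (5.19 FPKM) and *Il24* (0.481 FPKM). Control 4 was lowest for *Tbx1* (9.72 FPKM).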

How the results depend on the processing

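Median-of-ratios scaling and quantile normalization changed the split of the calls, to 2459 and 2320 genes higher and 2520 and 2480 lower, by moving the median of all genes from -0.15 to 0. Against the 2 controls that carry Cre, 3002 genes were called (829 higher, 2173 lower), 581 of the 971 list members and 35 of the 58 genes near *Cenpj*, in a fit with 2 fewer libraries. With a mean of at least 5 FPKM, 9444 genes were tested, and 2478 were lower, 332 of them at least 2-fold. Genes lower at least 2-fold numbered 1096 with a pseudocount of 0.1 and 436 after quantile normalization. Leaving out 1 library gave 4401 to 6451 called genes. The libraries of both groups are numbered 1 to 4 but same-numbered ones did not deviate together (correlations from -0.024 to 0.111), and a replicate block gave 5130 calls. With the block *Jun* passed (adjusted p 0.0295), and 13 rather than 2 of the late cornified envelope and fused S100 genes were higher. Of 167 called genes named in the text, 158 kept their call against the Cre-carrying controls, 164 with median-of-ratios scaling and 167 with quantile normalization, with array weights and with the block. Those lost against the Cre-carrying controls were *Igf2* (adjusted p 0.109), *Gapdh* (0.0712), *Dsg3* (0.0557), *Ctnnb1* (0.0627), *Cxcl14* (0.0523), *Col7a1* (0.186), *Pcna* (0.0867), *Rrm2* (0.299) and *Kit* (0.0609). With sex as a term 5905 genes were called, 1705 higher and 4200 lower, and *Col7a1* (adjusted p 0.146) and *Pcna* (0.0819) lost their calls. Leaving out 1 library turned the direction of the uncalled *Flg* (log2 fold change -0.663 to 0.031) and *Lor* (-0.113 to 0.567). The cause of these changes was not tested. In simulated data with 4 libraries a group and few changed genes, 43.3% of true 1.5-fold changes were found. That share does not measure the power reached in the real data, where many more genes were called.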
